A study of Mus musculus with 8 samples.

Results

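The genes described here are 35 genes of the actin remodelling machinery that macrophages use for phagocytosis, measured by RNA sequencing in primary cultured mouse microglia with and without IgG. The set holds the subunits of the Arp2/3 complex, actin isoforms, WASP and WAVE proteins, small GTPases with their activators, effector kinases, and proteins of filament turnover. Members were chosen by name: each gene of the count table whose GENCODE symbol was in the list entered the set. All 35 symbols were found among the 55385 genes of the table, and all 35 passed the filter on low counts, as did 17537 genes in all. Microglia came from the neocortex and hippocampus of newborn wild-type mice, and cells of several brains were pooled before culture. They were shaken off the mixed culture, replated, and treated at 15 days in vitro (DIV15). The control group held 4 libraries, which the labels call untreated and the methods describe as PBS-treated, and the IgG group held 4 libraries from cultures to which IgG was added at 10 µg/ml for the last 24 h. Control and IgG libraries of the same number carry the same date in the labels, so the comparison was made within 4 pairs.

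Phagocytosis of IgG-coated particles starts at Fc gamma receptors, whose signal activates the GTPases Rac and Cdc42 below the bound particle. Active Rac works through the WAVE complex and active Cdc42 through WASP proteins, and both switch on the Arp2/3 complex, which grows new actin filaments as branches from older ones. Cofilin, gelsolin and related proteins then cut and cap filaments so that the actin can be used again. The same genes serve cell migration and shape changes, and neither uptake nor filament actin was measured in these libraries.

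Library totals ran from 21287816 to 23703216 counts, and levels are given as counts per 1000000 counts of the library (CPM), after the libraries were scaled by the trimmed mean of M values (TMM). A count of 0 allows up to 3 counts, or 0.127 to 0.141 CPM, for counting error only. The cultures expressed all 10 microglia markers, with a summed level of 6795 to 7126 CPM in the control group and 6968 to 7796 CPM in the IgG group. Of these 10, 8 had a log2 fold change above 0, with a median of 0.20, and 5 (Aif1, Csf1r, Cx3cr1, Tmem119 and P2ry12) were higher at an unadjusted p under 0.05, against 6.35% of all genes. Of these only Aif1 passed the adjusted threshold (log2 fold change 0.69, adjusted p = 0.0331 by edgeR's quasi-likelihood test), against 0.393% of all genes. Oligodendrocyte markers summed to 1326 to 1991 CPM in the controls and 1165 to 1882 CPM with IgG, and fibroblast and mural markers to 676 to 1278 and 595 to 860 CPM, most of it Fn1. Astrocyte markers summed to 149 to 196 CPM over all 8 libraries, neuron markers to 37.7 to 66.5 CPM, and border-associated macrophage markers to 52.2 to 108 CPM. Of these 42 markers of other cells 36 were tested, none of which passed the adjusted threshold in either direction, and none of the 42 was at 0 in every library. At an unadjusted p under 0.05, Olig2 (log2 fold change -0.50), Fn1 (-0.39) and Tubb3 (-0.28) were lower with IgG, against 3.85% of all genes, and Cbr2 (1.23) was higher. The log2 fold change was below 0 for 9 of 10 oligodendrocyte, 7 of 8 astrocyte and 5 of 7 tested neuron markers. It was above 0 for 5 of 7 tested fibroblast and mural markers and 3 of 4 tested border-associated macrophage markers. After TMM scaling, the summed level of microglia markers was higher with IgG in all 4 pairs. The sums of oligodendrocyte, astrocyte, neuron, and fibroblast and mural markers were lower in all 4. The TMM factors of IgG libraries 1 and 3 were 0.913 and 0.927. Scaled by library totals alone, the microglia sum was lower with IgG in pair 3 and nearly equal in pair 1. The part of other cells in the results below was not tested, and in bulk RNA fewer cells of a type cannot be told apart from less RNA per cell. The IgG libraries of pairs 1 and 3 stood apart: mitochondrial genes took 4.85% and 5.59% of their counts, against 1.97% to 2.41% in the other 6 libraries.

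Per kilobase of exon, the level of the 35 genes in control microglia spanned from 814 CPM per kb for Actb to 4.52 CPM per kb for Wasl. Actb ranked 55th of 17503 tested genes with a known length, Actg1 113th, and the cofilin gene Cfl1 126th. Capg (247 ± 8.29 CPM per kb, SD, n = 4), Pfn1 (240 ± 17.4) and Arpc2 (216 ± 10.0) followed, and the order of Capg and Pfn1 lay within their spread. In the p41 and WASP families the member of blood cells was the higher one: Arpc1b was at 177 ± 5.96 CPM per kb against 24.6 ± 0.97 for Arpc1a, and Was at 29.5 ± 2.24 against 4.52 ± 0.26 for Wasl. Rac1 (84.6 ± 0.90 CPM per kb) and Rac2 (80.7 ± 6.05) had levels per length that did not differ beyond their spread in the controls. This rests on exon lengths of 4496 and 3103 bases, and in CPM the control means were 380 and 250. Elmo1 at 5.92 ± 0.14, Limk1 at 5.20 ± 0.32 and Wasl were the lowest members, each far above the limit of detection. Over the 4 controls the coefficient of variation of the CPM of a member ran from 1.07% for Rac1 to 10.8% for Actr3.

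**Figure D1:**
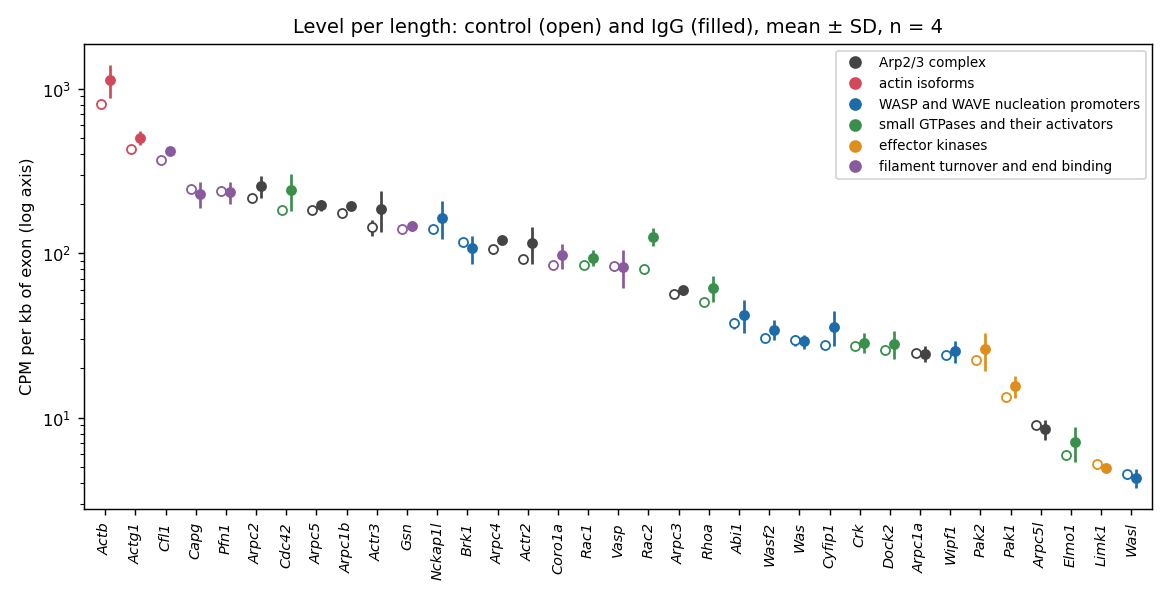
Mean level per kilobase of exon (CPM per kb, log axis) of each of the 35 genes in control libraries (open circles) and IgG libraries (filled circles), with the SD over 4 libraries, coloured by role. Actb stands highest and Wasl lowest in both groups, and Rac2 moves from 80.7 to 127 CPM per kb.

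The comparison of IgG with control asks whether microglia that meet IgG change the transcripts of this machinery. Rac2, which encodes the Rac GTPase of blood and myeloid cells, rose, and it was the 1 member of 35 to pass an adjusted p of 0.05. Of all tested genes, 0.393% were called higher at this threshold. None of the members was called lower with edgeR's quasi-likelihood test, nor was any other gene. At an unadjusted p under 0.05, 7 members were higher (Arpc2, Actr3, Actb, Cyfip1, Rac2, Cdc42 and Rhoa), against 6.35% of all genes, and 0 were lower, against 3.85%. This count of 7 was 2 without pair 1 (3.04% of all genes), 2 without pair 3 (2.75%), 8 without pair 2 (5.47%) and 14 without pair 4 (12.1%), so the share of all genes moved with it. With total-count scaling it was 3, and the shares of all genes turned to 3.28% higher and 8.68% lower. The criterion that the study's methods state, an unadjusted p under 0.01 with an absolute log2 fold change above 0.5, was met by Rac2 alone, against 1.48% of all genes, and by 2 members without pair 2 (1.4% of all genes). No member met it on the lower side, against 0.342% of all genes. In total 26 members had a fitted log2 fold change above 0 and 9 below 0, with a median of 0.15 against -0.005 for all genes and 0.20 for the 10 microglia markers. The part of microglial RNA in the members' median was not tested.

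Without the pairing, no gene passed the adjusted threshold by the same test, and 7 members were higher at an unadjusted p under 0.05 (4.83% of all genes) and 0 lower (2.18%). Rac2 then had a log2 fold change of 0.65 with an adjusted p of 0.373. With DESeq2 instead, both Rac2 and Actb were called, against 1.21% of all genes. The levels of the IgG group lay above all control levels for 6 members (Arpc1b, Arpc4, Actb, Rac2, Rhoa and Cfl1), and 2.6% of all genes had this property. No member lay below all controls, against 1.57% of all genes. In all 4 pairs 9 members were higher with IgG (10.5% of all genes) and 1 member, Limk1, was lower (8.46% of all genes).

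The size of the change differed between pairs. The median change of the members within a pair, on the log2 CPM scale, was 0.25 in pair 1, 0.07 in pair 2, 0.14 in pair 3 and 0.06 in pair 4. Members were higher with IgG in 25, 27, 25 and 21 of 35 genes in these pairs. Of all 17537 tested genes, 8997, 8845, 9033 and 8793 were higher, with medians of 0.013, 0.002, 0.016 and 0.001. The members' summed level was 13512 to 14641 CPM in the controls, and 18516, 14883, 18040 and 15095 CPM in IgG libraries 1 to 4. Thus the sum was higher with IgG in every pair and highest in pairs 1 and 3, where the mitochondrial share was also highest. After TMM scaling the summed microglia markers were also higher in every pair, but by library totals alone they were lower with IgG in pair 3. Of the 5 lists of other cells, 4 had a lower sum in every pair, but single markers went both ways. In the fibroblast and mural list, 5 of 7 tested markers had a log2 fold change above 0, with a median of 0.05. The part of all these markers in the members' sum was not tested. The pairs were therefore also fitted in 2 separate sets, a choice made after the data were seen that left 1 residual degree of freedom per gene. With pairs 2 and 4 alone, Rac2 had a log2 fold change of 0.53 (adjusted p = 0.0313 by the same test) and was the 1 member called, against 0.867% of all genes. With pair 1 or pair 3 left out singly it was not called (adjusted p = 0.219 and 0.239), so the value with both left out says nothing about the stability of the call. The median of the members was then 0.07, and 3 members were higher at an unadjusted p under 0.05, against 3.89% of all genes. With pairs 1 and 3 alone, 28 members passed the adjusted threshold, 22 higher and 6 lower, but so did 23.5% of all genes on the higher and 20.1% on the lower side. The median of the members was 0.17 there, and 22 were higher at an unadjusted p under 0.05, against 26.3% of all genes.

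**Figure D2:**
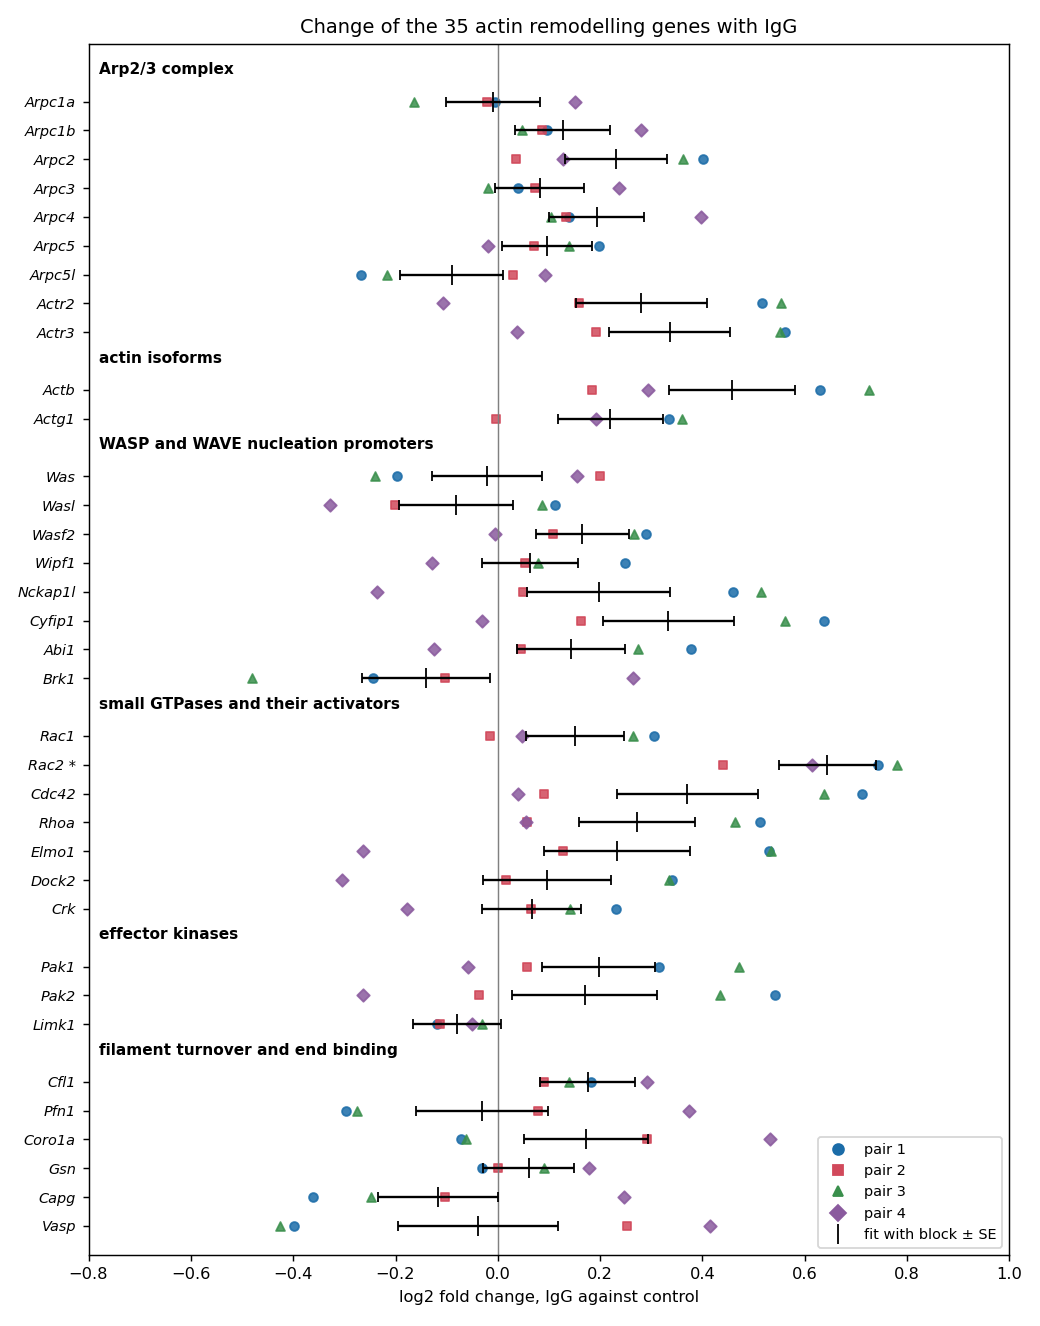
Change of each of the 35 genes with IgG on the log2 scale, by role: coloured symbols are the changes within pairs 1 to 4, and the black bar is the fitted log2 fold change with its SE. Rac2 (asterisk, adjusted p under 0.05) lies to the right of 0 in every pair, and in many genes pairs 1 and 3 lie close together and apart from pair 4.

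All 7 small GTPases and activators had a fold change above 0, with a median log2 fold change of 0.23. Rac2 was at 272, 259, 241 and 229 CPM in controls 1 to 4 and at 455, 352, 414 and 351 CPM in IgG libraries 1 to 4. Every IgG library was above every control. The log2 fold change was 0.64 (SE 0.10, adjusted p = 0.0381 by edgeR's quasi-likelihood test), a 1.56-fold higher level, and the change was 0.74, 0.44, 0.78 and 0.61 in pairs 1 to 4. Leaving out pair 1, 2 or 3 kept the size of the change at 0.61, 0.71 and 0.60 but raised the adjusted p to 0.219, 0.200 and 0.239. Without pair 4 it was 0.64, with an adjusted p of 0.0274. With total-count scaling it was 0.54 and Rac2 was not called (adjusted p = 0.0601 by the same test). The gene lies on chromosome 15 at chr15:78559167-78572783 (mm10, minus strand). Of its sequence, 0.48% of 50-base words occur in transcripts of other genes, so its reads can be told from those of Rac1.

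Rac1, the Rac GTPase present in nearly all cells, was at 377, 385, 382 and 376 CPM in the controls and at 466, 381, 459 and 389 CPM with IgG. Its IgG libraries 2 and 4 lay among or just above the controls, the groups overlapped, and the log2 fold change of 0.15 (SE 0.10) had an adjusted p of 0.603. As a share of the summed level per length of both genes, Rac2 made up 51.1%, 49.4%, 47.7% and 46.9% in the controls and 58.6%, 57.2%, 56.6% and 56.7% with IgG. The share was higher in every IgG library than in every control. The log2 ratio of Rac2 to Rac1 rose by 0.44, 0.45, 0.52 and 0.57 in pairs 1 to 4, a narrower range than that of either gene alone.

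Cdc42, the GTPase that acts on WASP proteins, was at 559, 541, 538 and 534 CPM in the controls and at 916, 576, 837 and 549 CPM with IgG. Rhoa, which drives formins and myosin contraction, was at 376, 373, 383 and 376 CPM in the controls and at 536, 389, 528 and 391 CPM with IgG. In both genes IgG libraries 1 and 3 were far above the controls and libraries 2 and 4 just above or among them. Their log2 fold changes were 0.37 (SE 0.14, unadjusted p = 0.0275, adjusted p = 0.454) and 0.27 (SE 0.11, unadjusted p = 0.0421, adjusted p = 0.476), which did not pass the adjusted threshold. Elmo1 and Dock2 form an exchange factor that loads Rac with GTP, and Crk encodes an adaptor protein. Their log2 fold changes were 0.23, 0.10 and 0.07, with adjusted p-values from 0.589 to 0.816. All 3 were higher with IgG in pairs 1 to 3 and lower in pair 4, where the changes were -0.26, -0.30 and -0.18.

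**Figure D3:**
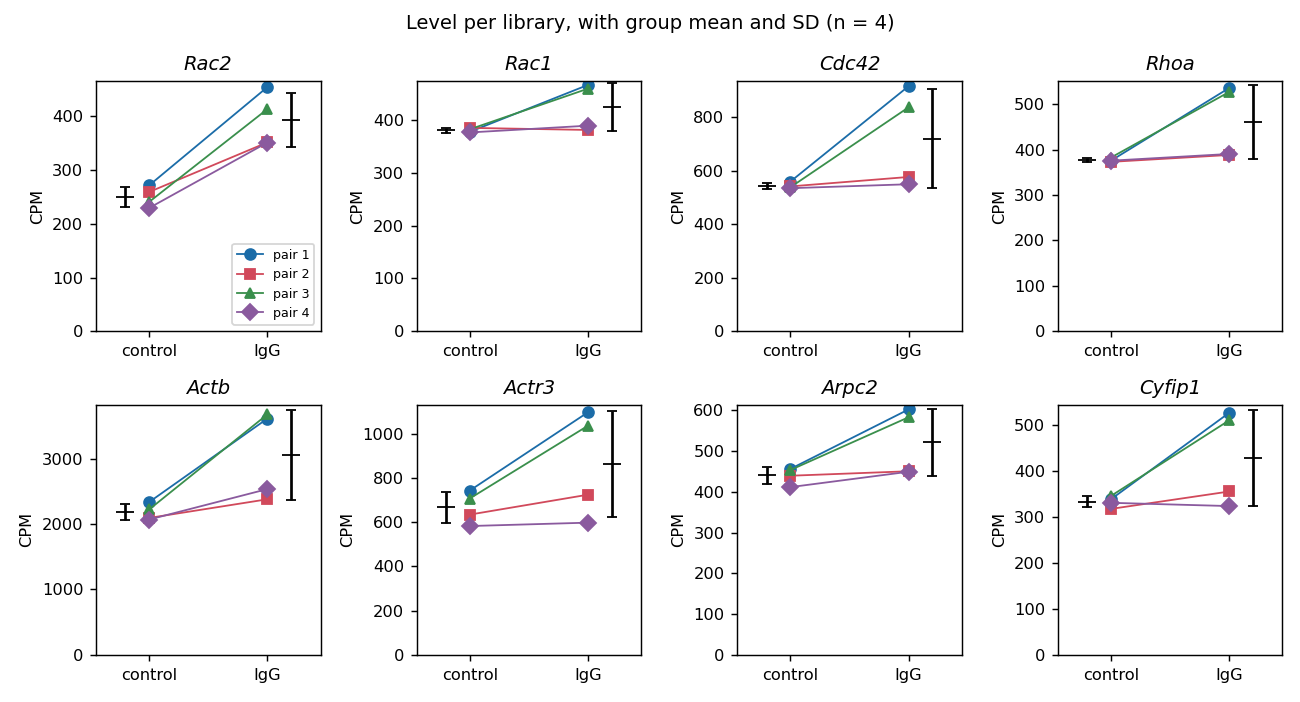
Level (CPM, from 0) of the 4 small GTPases and of Actb, Actr3, Arpc2 and Cyfip1 in each library, with lines joining the control and IgG library of a pair and the group mean and SD (n = 4) beside the points. In Rac2 all 4 lines rise, while in Rac1 and Rhoa the lines of pairs 2 and 4 are close to flat.

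Both cytoplasmic actin genes had a log2 fold change above 0, and Actb had the second largest of the set. Actb, which encodes beta-actin, was at 2336, 2094, 2223 and 2069 CPM in the controls and at 3613, 2379, 3677 and 2535 CPM with IgG. The groups did not overlap, although IgG library 2 was close to the highest control. The log2 fold change was 0.46 (SE 0.12), a 1.37-fold higher level, with an unadjusted p of 0.00572 and an adjusted p of 0.286. Actg1, for gamma-actin, was at 1165, 1171, 1117 and 1145 CPM in the controls and at 1468, 1168, 1434 and 1307 CPM with IgG. IgG libraries 1, 3 and 4 were above all controls and library 2 was not, and the log2 fold change of 0.22 (SE 0.10) had an adjusted p of 0.508. In Actg1, 37.4% of 50-base words are shared with transcripts of other genes, among them Actg-ps1, against 9.12% in Actb. The level of Actg1 is therefore uncertain as that of a single gene.

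Serum response factor (SRF) controls many actin genes through the CArG box, and RefSeq promoters (GRCm38.p6) of the set were searched for it because several members were higher together. The 250 bases before each annotated start were read on both strands, in 38 windows of 28 members. Actb, Arpc5l, Cyfip1, Nckap1l, Pak2, Rac1 and Rac2 had no entry in the table. A CArG box was present in 1 window each of Actg1 and Arpc4, and in 1.467% of 32851 windows of all genes. The matches, with the box in capitals and the bases around it in the direction of the gene, are as follows. They lie at chr11:120348576-120348585 on the minus strand, 80 bases before the start of Actg1, and at chr6:113377863-113377872 on the plus strand, 240 bases before the start of Arpc4.
Actg1: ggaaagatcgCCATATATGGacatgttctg
Arpc4: CCTAATTTGGtgcccaacct

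Actg1 was higher with IgG in 3 pairs and Arpc4 in 4, and neither passed the adjusted threshold. The macrophage-type sequence GAGGAAGT, read as a PU.1 motif, was in no member window and in 2.441% of all windows. The STAT-type motif TTCNNNGAA was in windows of Abi1 and Elmo1 and in 7.02% of all windows. The interferon-response motif, GAAA at both ends with 2 bases of any kind between, was in a window of Wipf1 and in 2.977% of all windows. These matches, capitals marking the motif, lie at chr2:23040343-23040351 (minus strand), chr13:20472916-20472924 (plus strand) and chr2:73453983-73453992 (minus strand). The strands are those of the genes, in whose direction the sequences are printed, and the Wipf1 match is the reverse complement of the motif, which reads with GAAA at both ends on the plus strand. In Elmo1 a further match lay closer to the same start, and no 2 motifs overlapped in a member. The windows of Elmo1 and Wipf1 belong to annotated starts inside the GENCODE gene. The matches are shown because STAT and interferon-response sites are known from interferon-induced genes, and they describe letters, not binding.
Abi1: gaaactacaaTTCCCAGAAagcattgcta
Elmo1: agaaaagctcTTCCCAGAAaagccgatga
Wipf1: accaatctagTTTCTTTTTCtatagcaaag

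Of the 9 Arp2/3 genes, 7 had a log2 fold change above 0, and the median was 0.13. No gene of the complex passed the adjusted threshold, against 0.393% of all genes called higher. Arpc2 and Actr3 were higher at an unadjusted p under 0.05, against 6.35% of all genes. Actr3, the Arp3 core subunit, was at 743, 634, 707 and 582 CPM in the controls and at 1097, 724, 1036 and 598 CPM with IgG. Arpc2, which holds the complex together and binds the mother filament, was at 456, 439, 453 and 411 CPM in the controls and at 602, 450.4, 583 and 449 CPM with IgG. Pairs 1 and 3 carried most of both changes, and in both genes IgG libraries 2 and 4 overlapped the controls. The log2 fold changes were 0.34 (SE 0.12, adjusted p = 0.418) for Actr3 and 0.23 (SE 0.10, adjusted p = 0.487) for Arpc2. In Actr3, 26.3% of 50-base words are shared with other transcripts, which are named as predicted genes.

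A different pattern was seen in Arpc1b and Arpc4, where pair 4 changed most. Arpc1b, the form of the p41 subunit found in blood cells, was at 916, 904, 935 and 863 CPM in the controls and at 979.8, 959, 966 and 1047 CPM with IgG. Arpc4 was at 258, 243, 259 and 226 CPM in the controls and at 284, 266, 278 and 298 CPM with IgG. Neither gene's groups overlapped, yet the log2 fold changes of 0.13 (SE 0.09) and 0.19 (SE 0.09) had adjusted p-values of 0.639 and 0.517. Exons of Arpc4 overlap those of Ttll3 on the same strand, and 10.0% of its 50-base words are shared with that gene. Actr2, the Arp2 core subunit, had a log2 fold change of 0.28 (SE 0.13), with changes of 0.52, 0.16, 0.55 and -0.11 in pairs 1 to 4. Arpc3 and Arpc5 had values of 0.08 and 0.10, and Arpc1a and Arpc5l of -0.01 and -0.09, all with adjusted p-values of 0.693 or more.

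Over the 8 WASP and WAVE genes the median log2 fold change was 0.10, with 5 above 0 and 3 below. Cyfip1, the WAVE subunit that binds active Rac, was at 338, 317, 345 and 330.4 CPM in the controls and at 526, 355, 509.6 and 323 CPM with IgG. IgG libraries 1 to 3 were above all controls, and library 4 was below 3 of the 4 controls. The log2 fold change of Cyfip1 was 0.33 (SE 0.13, unadjusted p = 0.0315, adjusted p = 0.461). Nckap1l, the haematopoietic scaffold known as HEM1, was at 866, 823, 832 and 809 CPM in the controls and at 1191, 852, 1188 and 686 CPM with IgG. Its lowest and its highest levels of all 8 libraries were both IgG libraries, and its log2 fold change of 0.20 had an SE of 0.14 and an adjusted p of 0.626. Wasf2 (WAVE2) and Abi1 had log2 fold changes of 0.16 and 0.14 and the same order of pairs, with pairs 1 and 3 highest and pair 4 lowest. Brk1, the smallest subunit of the complex, went the other way within pairs: its changes were -0.24, -0.10, -0.48 and 0.27, and its log2 fold change was -0.14 (SE 0.13).

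Of the WASP genes, Was, mutated in Wiskott-Aldrich syndrome, was at 75.1, 67.7, 74.2 and 64.0 CPM in the controls and at 65.6, 77.7, 62.8 and 71.2 CPM with IgG. The groups overlapped, pairs 1 and 3 were lower and pairs 2 and 4 higher, and the log2 fold change was -0.02 (SE 0.11). Wasl, the broadly expressed N-WASP gene, changed by 0.11, -0.20, 0.09 and -0.33 in pairs 1 to 4, the opposite sign to Was in each. Wipf1, which encodes the WASP-binding partner WIP, had a log2 fold change of 0.06 (SE 0.09).

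Among the 3 effector kinases no change passed either threshold, against 0.393% (adjusted) and 6.35% (unadjusted) of all genes on the higher side. Pak1 and Pak2, kinases that bind active Rac and Cdc42, had log2 fold changes of 0.20 (SE 0.11, adjusted p = 0.564) and 0.17 (SE 0.14, adjusted p = 0.671). Pak2 was at 221 and 211 CPM in IgG libraries 1 and 3 and at 147 and 129 CPM in libraries 2 and 4, whereas its 4 controls were within 151 to 156 CPM. The IgG libraries therefore lay on both sides of the controls. Limk1, which phosphorylates and so inhibits cofilin, was the 1 member lower in all pairs, by 0.12, 0.11, 0.03 and 0.05 on the log2 scale. Its levels were 34.7 to 39.9 CPM in the controls and 32.1 to 37.0 CPM with IgG, and the log2 fold change of -0.08 (SE 0.09) had an adjusted p of 0.744.

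For the 6 genes of filament turnover and end binding the median log2 fold change was 0.01, with 3 above 0 and 3 below. Cfl1, the filament-cutting cofilin gene, was the most even: it was at 1086, 1042, 1084 and 1016 CPM in the controls and at 1233, 1109, 1194 and 1242 CPM with IgG. Its groups did not overlap, but the log2 fold change of 0.18 (SE 0.09) had an adjusted p of 0.546. Vasp, which keeps filament ends growing, was at 228, 223, 221 and 198 CPM in the controls and at 173, 266, 164 and 264 CPM with IgG. Both the lowest and the highest levels of Vasp were IgG libraries, with changes of -0.40, 0.25, -0.42 and 0.41 in pairs 1 to 4. Pfn1, the profilin that feeds actin monomers to growing ends, changed by -0.30, 0.08, -0.28 and 0.37. Capg, a filament-capping protein of macrophages, changed by -0.36, -0.10, -0.25 and 0.25. Coro1a, which recycles Arp2/3 branches in leukocytes, changed by -0.07, 0.29, -0.06 and 0.53. In these 4 genes pairs 1 and 3 were lower with IgG and pair 4 was higher, so that the pair medians of the group were -0.19, 0.08, -0.16 and 0.33. Gsn, the calcium-activated gelsolin, changed by -0.03, 0.001, 0.09 and 0.18. No gene of this group had an adjusted p under 0.546.

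In the set 7 pairs of related genes can be compared as shares of their summed level per length, which removes any factor common to both genes of a library. Actb made up 65.3% ± 1.38 (SD, n = 4) of Actb plus Actg1 in the controls and 68.9% ± 2.95 with IgG. Arpc1b made up 87.8% ± 0.69 and 88.8% ± 0.85 of the p41 genes, and Arpc5 95.3% ± 0.14 and 95.8% ± 0.87 of the p16 genes. The shares of Actr3 against Actr2 (60.7% ± 1.46 and 61.6% ± 1.01), Was against Wasl (86.7% ± 1.26 and 87.1% ± 2.27) and Pak2 against Pak1 (62.7% ± 1.21 and 62.2% ± 2.84) moved by less than their spread. Among these 7 shares, that of Rac2 (48.8% ± 1.84 against 57.3% ± 0.90) was the 1 whose groups did not overlap. Within pairs, the log2 ratio of Actb to Actg1 was also higher with IgG in all 4 (by 0.30, 0.19, 0.37 and 0.10), and so was that of Arpc1b to Arpc1a (by 0.10, 0.11, 0.21 and 0.13).

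**Figure D4:**
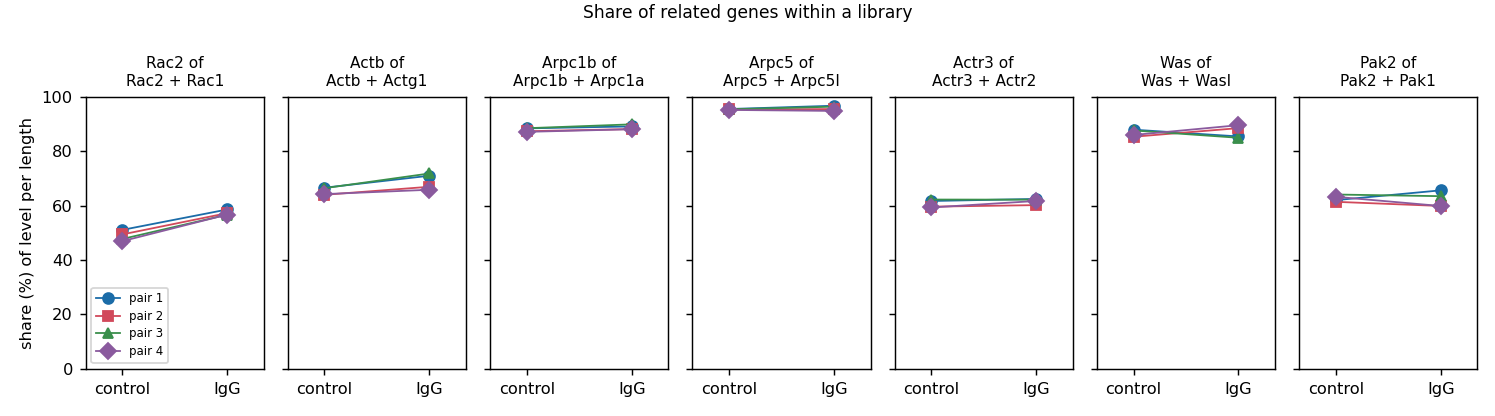
Share (percent, from 0 to 100) of the first gene in the summed CPM per kb of 2 related genes, in each control and IgG library, with lines joining the libraries of a pair. The shares of Rac2, Actb and Arpc1b are higher with IgG in all 4 pairs, that of Rac2 going from 46.9% to 51.1% in the controls to 56.6% to 58.6% with IgG, and in the other 6 panels the groups overlap.

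Pairs 1 and 3 ordered the members' changes in nearly the same way, with a Spearman correlation of 0.97 over the 35 genes, against 0.67 over all 17537 genes, although the sizes differed, as for Wipf1 (0.25 and 0.08) and Brk1 (-0.24 and -0.48). Pair 4 ordered the members differently, with correlations of -0.38 with pair 1 and -0.35 with pair 3. The change within a pair moved with the GC content of the transcripts, which is a property of the sequence. Over the members, the Spearman correlation between change and GC content was -0.60, 0.12, -0.54 and 0.70 in pairs 1 to 4, and over 17503 genes it was -0.40, -0.04, -0.40 and 0.32. The 17 members of lowest GC content (41.4% to 49.8%), among them Cdc42, Actr2, Actr3 and Rhoa, had a median change of 0.38, 0.06, 0.44 and -0.06 in the 4 pairs. The 17 of highest GC content (50.2% to 58.8%), among them Vasp, Pfn1, Coro1a and Capg, had -0.01, 0.09, 0.05 and 0.27. Exon length ran opposite to GC content, with correlations over the members of 0.43, -0.08, 0.42 and -0.69. These are descriptions across genes, which share their libraries and are not independent replicates.

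A correction for GC content and exon length was added to the fit with the pairs. Its curves were drawn within each pair from the same IgG minus control differences that were tested afterwards. The p-values after it are therefore no independent support for the uncorrected fit. Rac2, with a GC content of 53.9%, had a log2 fold change of 0.67 (adjusted p = 0.0145 by the same test) after the correction. The median of the members was then 0.13, and 13 members had an unadjusted p under 0.05, all higher with IgG, against 9.36% of all genes higher and 5.22% lower. Rac2 was again the 1 member to pass the adjusted threshold, against 1.2% of all genes called higher and 0.0513% called lower.

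**Figure D5:**
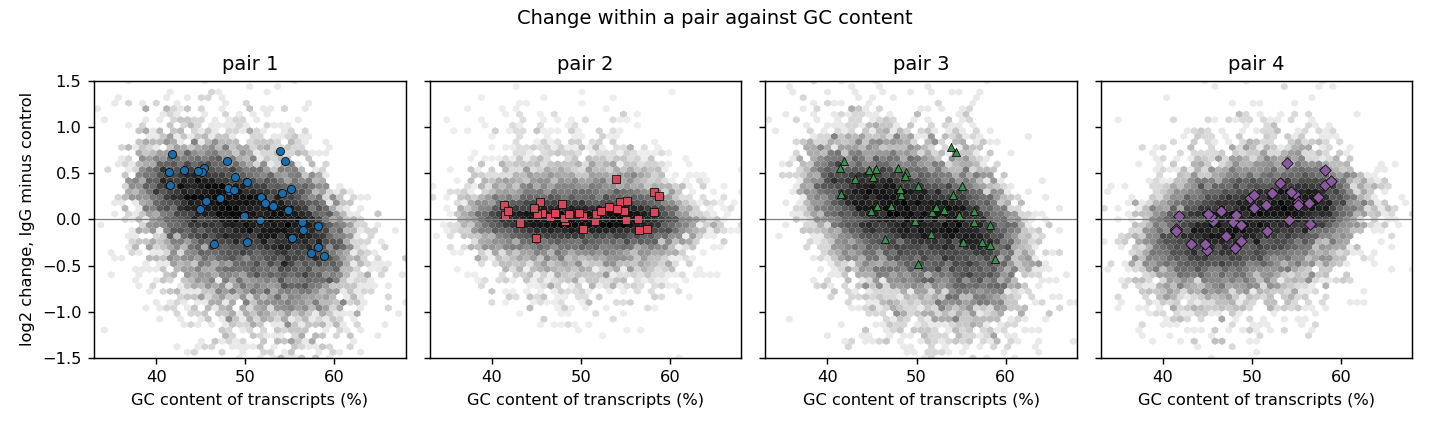
Change of each gene within a pair (log2 CPM, IgG minus control) against the GC content of its transcripts (percent), with the 35 members as coloured symbols over all tested genes in grey, darker where more genes lie. The members slope down in pairs 1 and 3, are flat in pair 2 and slope up in pair 4, as the grey cloud does.

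Beyond the 35 genes, 151 other genes of actin biology and Fc receptor signalling were read from the same fit, of which 147 were tested. Of these, 2 passed the adjusted threshold, both on the higher side, against 0.393% of all genes. Both are receptors for IgG in the list of Fc gamma receptor signalling. Fcgr1, the high-affinity receptor CD64, was at 205, 147, 200.2 and 97.0 CPM in the controls and at 382, 221, 367 and 167 CPM with IgG. Fcgr4, the activating receptor known as CD16-2, was at 38.0, 20.2, 35.5 and 16.0 CPM in the controls and at 71.2, 29.3, 61.9 and 24.6 CPM with IgG. The groups overlapped in both, the cultures differed in level, and every pair was higher with IgG. The log2 fold changes were 0.78 (SE 0.09, adjusted p = 0.0165) and 0.72 (SE 0.10, adjusted p = 0.0329), and without the pairing the adjusted p-values were 0.692 and 0.693. Both calls were also lost without pair 1, 2 or 3 (adjusted p = 0.105, 0.149 and 0.107 for Fcgr1 and 0.170, 0.211 and 0.154 for Fcgr4), and that of Fcgr4 with total counts (adjusted p = 0.0584). Of the 30 genes of that list, 8 were higher and 3 lower at an unadjusted p under 0.05, against 6.35% and 3.85% of all genes, and the median was 0.10. Prkcd, a protein kinase C that acts below the receptors, had the lowest value of the list among genes with a mean of at least 1 CPM over all 8 libraries (log2 fold change -0.32, adjusted p = 0.452).

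Of the other pathway lists, none held a gene past the adjusted threshold, against 0.393% of all genes called higher. In lists of this size, no call is close to that share. Among 24 other small GTPases and regulators, 4 were higher and 2 lower at an unadjusted p under 0.05, against 6.35% and 3.85% of all genes, with a median of 0.07. Arhgdib, a GDP dissociation inhibitor of blood cells, which holds small GTPases in the cytosol, was at 151, 145, 133 and 134 CPM in the controls and at 254, 182, 228 and 199.8 CPM with IgG. Its groups did not overlap, and the log2 fold change was 0.61 (SE 0.10, adjusted p = 0.0588). It passed the adjusted threshold in 6 of 16 alternatives, among them DESeq2 and the GC and length correction (adjusted p = 0.0211). Rhoj had the lowest value of that list at -0.39 (SE 0.12, adjusted p = 0.367).

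Of 27 tested genes for other turnover and capping proteins, 5 were higher and 1 lower at an unadjusted p under 0.05, against 6.35% and 3.85% of all genes, with a median of 0.08, and Scin was at 0 in every library. The monomer-binding thymosins stood at the ends of this list. Tmsb4x was at 2697 to 3181 CPM in the controls and at 4890, 3780, 4802 and 3892 CPM with IgG (log2 fold change 0.52, SE 0.11, adjusted p = 0.121). Tmsb10 was at 196 to 213 CPM in the controls and at 93.8, 184, 70.9 and 231 CPM with IgG (log2 fold change -0.66, SE 0.27, adjusted p = 0.475). In Tmsb10 IgG libraries 1 and 3 were far below the controls and library 4 was above them.

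The 12 formins, which grow unbranched filaments, had a median of 0.03, from -0.26 for Inf2 to 0.42 for Diaph3. The 16 other WASP, WAVE and Arp2/3 relatives had a median of -0.02, from -0.44 for Wasf1, the WAVE gene of neurons, to 0.18 for Washc4. The 18 genes of bundling, crosslinking and membrane linkage had a median of 0.04, from -0.21 for Vcl to 0.41 for the tropomyosin gene Tpm3. The 10 myosin genes had a median of -0.05, from -0.28 for Myl6 to 0.17 for Myh9, and the 10 tested SRF targets one of 0.11, from -0.48 for Ccn1 to 0.21 for Acta2 among genes with such a mean of at least 1 CPM. The value for Acta2 had an SE of 0.44, its change ran from -0.71 to 1.78 over the pairs, and its sign turned in 4 alternatives, among them the fit without the pairing (-0.02). At an unadjusted p under 0.05, 1 formin (Inf2) and 1 WASP relative (Wasf1) were lower and 1 linker (Tpm3) was higher, against the same shares of all genes, and no myosin or SRF target passed it.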

How the data were processed

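Gene counts came from 8 libraries of polyA RNA, which the authors enriched with oligo(dT), depleted of ribosomal RNA, prepared with the NEBNext Ultra kit and sequenced on NovaSeq6000. The table the authors deposited gives raw read counts for each Ensembl identifier, made from reads that they cleaned and aligned to mm10. The submitters' processing notes name HISAT2 2.2.1, SAMtools 1.12, Picard 2.26.3, R 4.1.2, featureCounts and edgeR 3.36.0 without their roles. The annotation, the use of strand and the treatment of reads with several alignments are not given in the sources used here, so genes with overlapping or copied sequence are uncertain. Symbols, positions, GC content and exon lengths were read from GENCODE M21 (mm10), which held 55144 of the 55385 identifiers. Exon length is the union of all annotated exons of a gene, not the length of the expressed transcript. Ranks and shares of level per length between genes depend on it.

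The members and lists were chosen with earlier results of these data known. Counts were scaled by TMM, filtered with filterByExpr and tested with edgeR 4.0.16 (quasi-likelihood test, R 4.3.3), with the replicate number as a block, and p-values were adjusted by Benjamini-Hochberg over all 17537 genes. The study's methods state no design, and the pairing follows the date that same-numbered libraries share in the labels. After subtraction of the group means, libraries with the same number correlated at 0.47, 0.43, 0.28 and 0.33 over 11928 genes, against -0.38 to 0.28 for other numbers. Nothing else says that libraries came from separate animals. With the block, p-values measure how evenly the change with IgG repeated over these pairs, not how far the cultures differ in level. Within-pair changes are differences of log2 CPM with a prior count of 2. No 2 libraries of a group agreed within sampling noise.

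All members were named. Of the other lists, genes past the adjusted threshold and the highest and lowest genes with a mean of at least 1 CPM over the 8 libraries were named, and of the 236 list symbols found of 237, Scin is named as the gene at 0. Alternatives were the fit without the block, the likelihood ratio test, DESeq2 1.42.0, limma-voom 3.58.1, RLE, upper quartile and total-count scaling, other filters, a GC and length correction (lowess, span 0.3) and leaving out each pair, with pairs 2 and 4 alone and pairs 1 and 3 alone added after the data were seen. The fits with and without the block were tested on simulated data. With simulated differences between cultures, the block fit recovered 97.1% of genes changed by a log2 of 0.5 and 100.0% at 1. Without the block, 0.0% and 29.9% were recovered. In data simulated with no culture differences, both fits recovered 94.9% and 100.0%. These shares describe the simulated data only, and the share recovered in the 8 libraries was not tested. In these libraries the changes of different pairs had Spearman correlations from -0.18 (pairs 1 and 4) to 0.67 (pairs 1 and 3) over all 17537 genes.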

Additional observations from a re-analysis of the deposited data

Results flagged for a closer look

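In 70 groups of 4 libraries (35 genes in control and in IgG), 1 library lay far from the other 3 by Dixon's test in 2 groups. Chance gives about 1 in 20 groups, so 2 of 70 is no more than chance gives. For Wasl, control 2 was at 30.3 CPM, whereas the other controls were at 26.9 to 27.2 CPM. For Gsn, IgG library 4 was at 512 CPM, whereas the other IgG libraries were at 445 to 451 CPM. The cause of either was not tested.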

How the results depend on the processing

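Over 16 alternatives, 560 values of the 35 genes were computed, of which 492 kept their direction and their side of the adjusted threshold, 34 changed sign, 5 lost the call and 29 gained it, most of these with pairs 1 and 3 alone. Rac2 was higher in all 16 (log2 fold change 0.53 to 0.74) and called in 11. Its adjusted p-values ran from 6.7e-22 to 0.373, the lowest with pairs 1 and 3 alone, where many genes passed. The 11 include pairs 2 and 4 alone and pairs 1 and 3 alone. Both sets were chosen after the data were seen and say nothing about the stability of the call. It was not called without the replicate block, with total counts (adjusted p = 0.0601), or without pair 1, 2 or 3. Actb was called with DESeq2, with no low-count filter and with pairs 1 and 3 alone. Among the other genes, Fcgr1 and Fcgr4 were not called without the replicate block or without pair 1, 2 or 3, nor Fcgr4 with total counts. Calls were gained by Arhgdib in 6 alternatives, Tmsb4x in 4 and Tmsb10 in 2, in each gene with pairs 1 and 3 alone among them.

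Members called higher numbered 0 without the replicate block, 2 with DESeq2, 0 with total counts, 2 with no low-count filter, 22 (and 6 lower) with pairs 1 and 3 alone, and 0 to 1 when a pair was left out. Members higher at an unadjusted p under 0.05 numbered 3 with total counts (3.28% of all genes), 13 with the GC and length correction (9.36%), 3 with pairs 2 and 4 alone (3.89%), 22 with pairs 1 and 3 alone (26.3%, with 6 members and 23.3% of all genes lower), and 2 to 14 when a pair was left out (2.75% to 12.1%), where 0 to 2 were lower (1.4% to 11.3%). Leaving out a pair gave 1 to 2 members past the stated criterion (1.08% to 2.43% of all genes), and pairs 1 and 3 alone gave 7 (6.56%). The members' median was 0.05 with total counts, against -0.105 for all genes under that scaling, and 0.10 to 0.175 when a pair was left out. Genes called higher and lower numbered 0 and 0 without the block, 281 and 46 with the likelihood ratio test, 213 and 18 with DESeq2, 87 and 1 with limma-voom, 37 and 0 with total counts, 305 and 71 with no low-count filter, 211 and 9 with the GC and length correction, 154 and 36 with pairs 2 and 4 alone, 4143 and 3539 with pairs 1 and 3 alone, and 0 to 171 and 0 to 11 when a pair was left out, lowest without pair 2 and highest without pair 4.

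With total counts the sign turned for Arpc3 (-0.018), Arpc5 (-0.003), Wipf1 (-0.038), Dock2 (-0.004), Crk (-0.035) and Gsn (-0.041). With the GC and length correction it turned for Arpc1a (0.003), Was (0.024), Pfn1 (0.069) and Vasp (0.070), and without the block for Acta2 (-0.018). With pairs 2 and 4 alone it turned for Arpc1a (0.065), Arpc5l (0.061), Was (0.177), Wipf1 (-0.037), Nckap1l (-0.093), Abi1 (-0.039), Brk1 (0.082), Elmo1 (-0.068), Dock2 (-0.145), Crk (-0.056), Pak2 (-0.150), Pfn1 (0.226), Capg (0.072), Vasp (0.333), Acta2 (-0.700), Myl6 (0.260), Tmsb10 (0.016) and Washc4 (-0.193). With pairs 1 and 3 alone it turned for Arpc3 (-0.008), Wasl (0.081) and Coro1a (-0.086). Leaving out a pair gave -0.096 to 0.053 for Was, -0.182 to 0.059 for Pfn1, -0.208 to 0.091 for Vasp, -0.080 to 0.042 for Arpc1a and -0.186 to 0.681 for Acta2. The cause was not tested. Depth was no limit for the members, of which the lowest value was 21.6 CPM for Wasl in IgG library 4.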
